A study of Mus musculus with 5 samples.

Results

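The genes described here encode the proteins of the mitochondrial ribosome that carry the names Mrpl (large subunit) and Mrps (small subunit). They were taken from the array by name: each probe set (a group of short probes for 1 transcript) whose only annotated gene symbol was Mrpl or Mrps followed by a number was kept. Where a gene had several, the one with the highest average signal across all 5 arrays stood for it. This gave 76 genes of the 18193 measured, 47 of them Mrpl and 29 Mrps, and they hold 156 of the 45037 probe sets. The RNA came from the E14 line of mouse embryonic stem cells: 2 wild-type samples (WT replicates 1 and 2) and 3 samples that carry a Trip12 mutation on both alleles (Trip12 mut/mut replicates 1, 2 and 3), each labelled a biological replicate. The Trip12 protein is an E3 ubiquitin ligase of the HECT type, which attaches ubiquitin to other proteins. Cells of both genotypes grew on feeder layers of mouse embryo fibroblasts, in medium with leukaemia inhibitory factor (LIF, 100 units/ml), serum replacement (14%) and fetal bovine serum (1%), and 6 µg of total RNA was labelled per array. The nature of the mutation, the number of clones, the removal of feeder cells and the way the replicates were made are not given in the sources used here. A p-value therefore measures only the spread between these samples. In RNA from whole cultures, fewer cells of a type and less RNA per cell cannot be told apart.

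Mitochondria keep a small genome of their own, which encodes core subunits of the respiratory chain, and they translate its messages on ribosomes that differ from those of the cytoplasm. All mitochondrial ribosomal proteins are encoded in the nucleus, made in the cytoplasm and imported, so the subunits are assembled from nuclear-encoded proteins and ribosomal RNAs transcribed inside the organelle. Many of the proteins have bacterial relatives, and others are found only in mitochondrial ribosomes. Embryonic stem cells depend strongly on glycolysis, and their mitochondria are commonly described as immature.

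Levels are log2 RMA values, in which background was corrected, the arrays were normalised to each other and the probes of a set were summarised. A difference of 1 on this scale is 2-fold, and levels of different genes cannot be set against each other because each probe set has its own brightness. The array medians lay between 5.51 and 5.55, and a change common to all transcripts would not be seen in such values. All 76 genes lay above the median of all values, 5.52, on every array, with means over the 5 arrays between 8.14 and 11.68. All 15 pluripotency markers on the list, Pou5f1, Sox2 and Nanog among them, also lay above it on every array.

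Of the 3 arrays labelled Trip12 mut/mut, 1 stood apart from the others. Trip12 was read from its probe set with the highest mean, and whether the mutation alters that part of the gene is not given. This probe set read 10.17 and 10.25 in WT cells, and 10.18, 12.09 and 12.57 on the arrays labelled replicates 1, 2 and 3. The array labelled replicate 1 thus lay at the WT level, below the other arrays labelled mut/mut. Over all probe sets, its differences from the WT arrays had SDs of 0.123 and 0.124, the WT arrays differed from each other with an SD of 0.123, and no probe set was more than 2-fold apart in any of these pairs. For this reason it is named only by its label, and values listed for the arrays labelled mut/mut stand in the order of replicates 1, 2 and 3. Against WT, replicate 2 had 475 to 545 probe sets and replicate 3 had 293 to 297 beyond 2-fold, whereas replicates 2 and 3 differed that far in 9. Among the mitochondrial ribosomal protein genes, the largest gap between replicate 1 and the WT mean was 0.11, for Mrps6. The largest gap between the WT arrays was 0.18, for Mrpl38. Most differences are therefore given over all 5 arrays and over the 4 arrays left without it. Counts of genes below 0 in the role groups and lists, and the medians by promoter motif, are over the 4 only. No gene named below passed limma's test over 5 arrays, where the lowest adjusted p was 0.748, so that SEs are given there without a p. Since that array was set aside for its values, p-values over 4 arrays are too favourable.

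**Figure D1:**
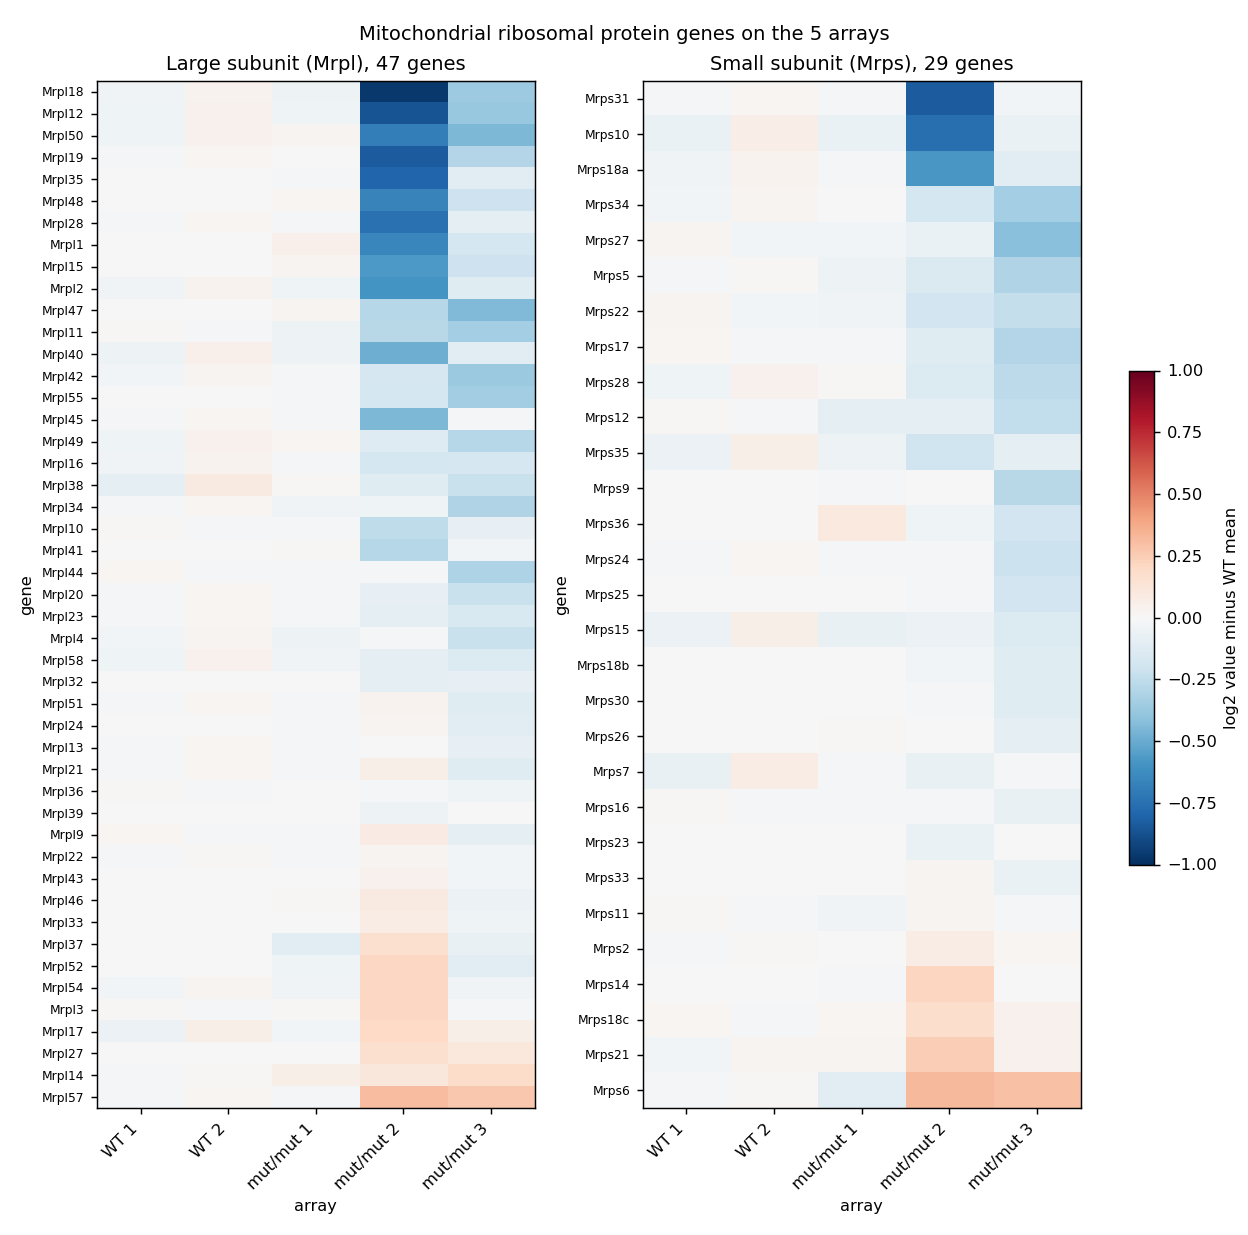
Difference of each of the 76 genes (rows, large subunit in 1 panel and small subunit in the other) from the WT mean on each of the 5 arrays (columns), in log2 units by colour. The WT arrays and the array labelled replicate 1 are pale throughout, and the darkest cells lie on replicate 2.

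Most mitochondrial ribosomal protein genes read slightly lower on average over the arrays labelled Trip12 mut/mut than in WT cells, and none passed the test. Over the 5 arrays 61 of 76 genes (80.3%) had a difference, mut/mut minus WT, below 0, against 43.2% of all genes. The median difference was -0.10 for the 47 large-subunit genes and -0.07 for the 29 small-subunit genes, against 0.02 over all genes. In limma's moderated test with Benjamini-Hochberg adjustment over 18193 genes, 0 of the 76 and 0 genes in all (0.0%) were called at 0.05. At an unadjusted p under 0.05 the same fit had 214 genes (1.18%), and 0 of them were mitochondrial ribosomal protein genes. The 95% interval of a gene's difference had a median half-width of 0.24, so differences of the size of these medians were not detectable gene by gene.

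Without the array labelled replicate 1, the medians were -0.15 for the large and -0.10 for the small subunit. When replicate 3 was left out of the 5 arrays instead, they were -0.05 and -0.02, and without replicate 2 they were -0.07 and -0.06. Over the 4 arrays without the array labelled replicate 1, 36 of the 47 large-subunit genes lay below 0, as did 23 of the 29 small-subunit genes. In the limma fit over these 4 arrays that left out dim genes, 539 of 11626 genes (4.64%) were called. Of these 156 were lower (1.34%) and 383 were higher (3.29%). None of the 76 genes was among them, and the lowest adjusted p of a member was 0.068, for Mrpl50. At an unadjusted p under 0.05, 8 members were lower, beside 8.98% of genes not dim, and 2 were higher, beside 19.8%. With dim genes kept, the fit over 4 arrays called 0 of 18193 genes (0.0%), with 3730 (20.5%) at an unadjusted p under 0.05.

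**Figure D2:**
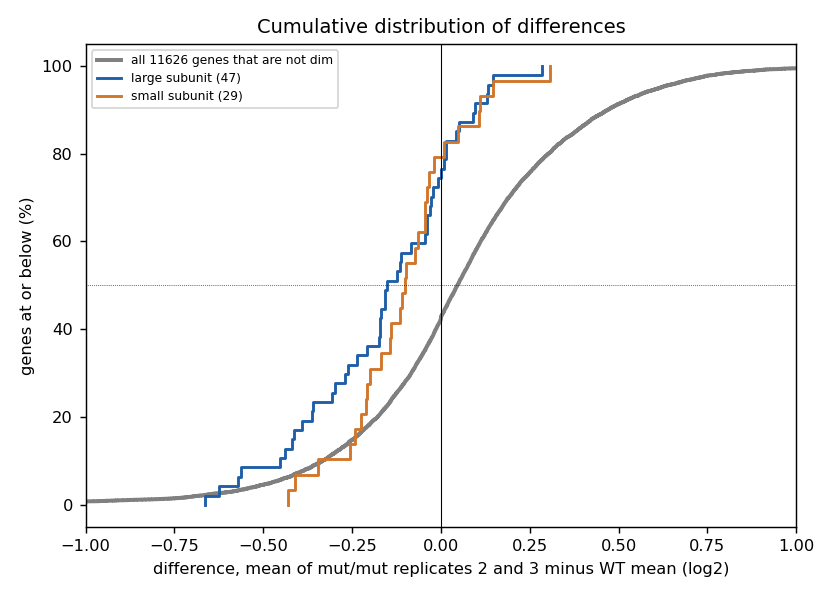
Cumulative share of genes (vertical axis, percent) by difference of the arrays labelled replicates 2 and 3 from WT (horizontal axis, log2 units), for the large subunit, the small subunit and the genes not dim. Around 0 both subunit curves lie to the left of the background curve: 76.6% of large-subunit and 79.3% of small-subunit genes lie below 0, against 42.3% of genes not dim.

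Marker genes of fibroblasts differed on the same arrays. Of 29 fibroblast markers measured, 26 were above 0 over the 4 arrays, against 9919 of all 18193 genes. The limma fit without dim genes held 28 of them, and 9 were called higher and 1, Cnn1, lower. Of all 11626 genes in that fit, 3.29% were called higher and 1.34% lower. The summed log2 level of the 29 markers was 296.05 to 296.25 in WT cells, while the array labelled replicate 1 had 295.49 and replicates 2 and 3 had 308.03 and 308.46. Summed pluripotency markers were 163.24 and 163.42 in WT cells, and the arrays labelled mut/mut had 163.25, 160.85 and 162.49. In the same fit, 3 of 15 of these were called, Utf1 and Lin28a lower and Tcl1 higher. Of 15 primitive endoderm markers measured, 10 were in that fit, and Col4a1 and Col4a2 were called higher. Of 10 trophoblast markers measured, 7 were in it, and the keratins Krt7, Krt8 and Krt18 were called lower. The other markers of these 2 lists in the fit, among them Gata6, Sox7, Eomes and Tfap2c, were not called. The part of the cell make-up in the values of the mitochondrial ribosomal protein genes was not tested.

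The arrays can also be read one by one. The median difference of the 76 genes from the WT mean was -0.01, -0.06 and -0.11 on the arrays labelled replicates 1, 2 and 3. Over genes not dim it was -0.01, 0.06 and 0.01. On replicate 3, 62 of the 76 genes lay below both WT arrays (81.6%, against 36.5% of all genes and 37.4% of genes not dim). On replicate 2 it was 44 (57.9%, against 28.6% and 34.0%). Both replicates lay below both WT arrays for 40 genes (52.6%), 25 large and 15 small, where the share of all genes was 17.5% and that of genes not dim 22.1%. Both lay above for 8 genes (10.5%), where the shares were 26.7% and 35.2%. With the array labelled replicate 1 included, all 3 arrays labelled mut/mut lay below both WT arrays for 12 genes (15.8%, against 6.29% of all genes and 7.93% of genes not dim) and above for 1, Mrpl14 (against 5.73% and 6.26%). The 12 were Mrpl2, Mrpl11, Mrpl12, Mrpl18, Mrpl34, Mrpl35, Mrpl55, Mrps5, Mrps9, Mrps12, Mrps22 and Mrps27. Several of these names fall outside the naming rule and were listed after their values were seen.

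Replicates 2 and 3 differed in how far single genes lay below WT. On replicate 2, 15 genes lay more than 0.4 below the WT mean, 12 large and 3 small. They make up 19.7% of the members, against 11.9% of genes not dim. These genes lay between -0.97 (Mrpl18) and -0.45 (Mrpl45), and the next gene, Mrpl41, lay at -0.29. The other 61 genes had a median of -0.01 on that array. On replicate 3 only 3 genes lay more than 0.4 below, 3.95% of the members against 6.09% of genes not dim. There the medians of the 15 and of the 61 genes were -0.12 and -0.11. The 15 were grouped by their measured values, so their place on replicate 2 is a description. The grouping also depends on the probe set that stood for each gene. Among the 61 genes, some bright probe sets not chosen lay at -0.93 (Mrpl44), -0.78 (Mrps15), -0.76 (Mrps23) and -0.70 (Mrpl11) on replicate 2. The 56 probe sets of members that were neither chosen nor dim had a median of -0.04 on that array.

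**Figure D3:**
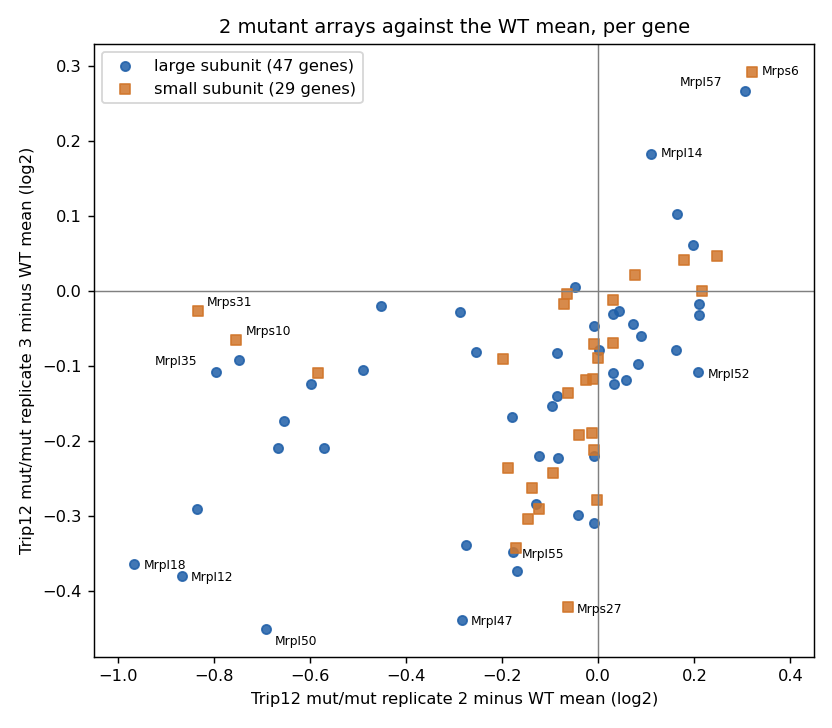
Difference from the WT mean on replicate 2 (horizontal axis) and replicate 3 (vertical axis) for the 76 genes, in log2 units, 1 point per gene with the subunits in different colours. A group of 15 genes lies to the left of -0.4 on replicate 2, and most of the other points lie near 0 on that axis and below 0 on replicate 3.

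Proteins of the stalk, the arm of the large subunit that recruits translation factors, had a median difference of -0.22 over 5 arrays and -0.31 over 4, and all 3 of its genes lay below 0. Mrpl12, the relative of the bacterial L7/L12 protein, read 10.59 and 10.66 in WT cells and 10.58, 9.76 and 10.25 on the arrays labelled replicates 1, 2 and 3. All 3 of these were below both WT arrays, the array labelled replicate 1 by less than the gap between the WT arrays. The difference was -0.43 (SE 0.26) over 5 arrays and -0.62 (SE 0.19) over 4, which is 1.54 times lower. In limma's fit without dim genes the latter had an adjusted p of 0.131.

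Mrpl11, at the base of the stalk, read 10.28 and 10.27 in WT cells and 10.22, 10.00 and 9.94 on the arrays labelled mut/mut. On this chosen probe set the groups did not overlap, and replicates 2 and 3 lay close together. Its difference was -0.22 (SE 0.10) over 5 arrays and -0.31 (SE 0.07) over 4, with an adjusted p of 0.084 in limma's fit. Other probe sets of Mrpl11 that were not dim did not share this pattern. With a WT mean of 10.12, replicates 1, 2 and 3 lay at 0.01, -0.70 and -0.35 from it. With a WT mean of 8.65, they lay at 0.04, 0.04 and -0.33. Mrpl10, which holds the L7/L12-type protein on the ribosome, differed by -0.12 (SE 0.09) over 5 arrays and -0.17 (SE 0.09) over 4.

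The central protuberance, the crest of the large subunit that faces the head of the small subunit, had 8 genes grouped at or near it. Their median was -0.16 over 5 arrays and -0.23 over 4, with 5 genes below 0 and 3 above. Mrpl18 had the most negative difference of all 76 genes. It read 10.93 and 11.00 in WT cells and 10.91, 10.00 and 10.60 on the arrays labelled mut/mut. Only replicates 2 and 3 lay clearly below WT, replicate 2 the lower. The difference was -0.46 (SE 0.29) over 5 arrays and -0.66 (SE 0.23) over 4, with an adjusted p of 0.161 in limma's fit.

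Mrpl35, in the same group, read 11.07 and 11.09 in WT cells and 11.06, 10.28 and 10.97 on the arrays labelled mut/mut. Here a single array, replicate 2, carried most of the difference of -0.31 (SE 0.27) over 5 arrays and -0.45 (SE 0.25) over 4. Mrpl48 and Mrpl40, both mitochondria-specific, differed by -0.28 and -0.22 over 5 arrays and by -0.44 and -0.30 over 4, and Mrpl38 by -0.11 and -0.17. Mrpl27 lay on the other side of 0, at 0.09 over 5 arrays and 0.13 over 4, and Mrpl33 and Mrpl46 lay at 0.01 over either set. For Mrpl33 and Mrpl46 the sign over 5 arrays turned under quantile normalisation and under centring of array medians.

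Around the exit tunnel, through which the growing protein leaves the ribosome towards the inner membrane, 8 genes had a median of -0.06 over 5 arrays and -0.08 over 4. Of these 7 lay below 0. Mrpl47, a relative of bacterial L29, read 10.38 and 10.37 in WT cells and 10.40, 10.09 and 9.94 on the arrays labelled mut/mut. Replicates 2 and 3 were below every other array, and the difference was -0.23 (SE 0.15) over 5 arrays and -0.36 (SE 0.08) over 4, the latter with an adjusted p of 0.089 in limma's fit. Mrpl45, which anchors the ribosome to the inner membrane, read 11.12 and 11.16 in WT cells and 11.12, 10.69 and 11.12 on the arrays labelled mut/mut, so only replicate 2 was clearly low, with differences of -0.16 (SE 0.16) over 5 arrays and -0.24 (SE 0.17) over 4. Mrpl44, Mrpl23, Mrpl24, Mrpl39 and Mrpl22 lay between -0.11 and -0.0036 over 5 arrays and between -0.16 and -0.0005 over 4. Mrpl17 lay at 0.08 and 0.13.

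Among the remaining large-subunit genes, Mrpl50, a mitochondria-specific protein, had the lowest adjusted p. It read 9.55 and 9.63 in WT cells and 9.62, 8.90 and 9.14 on the arrays labelled mut/mut. Replicates 2 and 3 lay below every other array. The difference was -0.37 (SE 0.23) over 5 arrays and -0.57 (SE 0.11) over 4, 1.49 times lower, with a 95% interval from -0.88 to -0.26. Mrpl19, with a bacterial relative, read 9.56 and 9.59 in WT cells and 9.58, 8.74 and 9.29 on the arrays labelled mut/mut. On this chosen probe set its pattern was the same, with a difference of -0.37 (SE 0.27) over 5 arrays and -0.56 (SE 0.20) over 4. Another bright probe set of Mrpl19, with a WT mean of 9.36, lay at only -0.14 on replicate 2 and at -0.33 on replicate 3. A dimmer one, with a WT mean of 6.06, lay at -0.56 and -0.18.

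Mrpl57, a mitochondria-specific protein, lay on the higher side. It read 10.40 and 10.44 in WT cells and 10.41, 10.72 and 10.68 on the arrays labelled mut/mut. Replicates 2 and 3 were above every other array. The difference was 0.19 (SE 0.12) over 5 arrays and 0.29 (SE 0.07) over 4, the latter with an adjusted p of 0.090 in limma's fit. Mrpl14, the docking site of the Malsu1 assembly factor, read 8.80 and 8.82 in WT cells and 8.87, 8.92 and 8.99 on the arrays labelled mut/mut. The groups did not overlap, and the difference was 0.12 (SE 0.06) over 5 arrays and 0.15 (SE 0.07) over 4.

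In the small subunit the most negative differences rested on 1 array. Mrps31, a mitochondria-specific protein, read 9.84 and 9.88 in WT cells and 9.84, 9.03 and 9.84 on the arrays labelled mut/mut. Mrps10, a relative of bacterial S10, read 10.26 and 10.39 in WT cells and 10.26, 9.57 and 10.26. For both genes replicate 2 alone was low. The differences were -0.29 (SE 0.29) and -0.30 (SE 0.25) over 5 arrays, and -0.43 (SE 0.295) and -0.41 (SE 0.26) over 4.

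Other small-subunit genes were low on both arrays. Mrps34 read 10.89 and 10.95 in WT cells and 10.92, 10.75 and 10.58 on the arrays labelled mut/mut, a difference of -0.17 (SE 0.11) over 5 and -0.26 (SE 0.09) over 4. Mrps22, singled out after its values were seen, read 10.09 and 10.02 in WT cells and 10.02, 9.87 and 9.82 on the arrays labelled mut/mut, a difference of -0.15 (SE 0.08) over 5 and -0.21 (SE 0.07) over 4. Mrps27, a protein with pentatricopeptide repeats, which bind RNA, read 8.27 and 8.21 in WT cells and 8.21, 8.18 and 7.82 on the arrays labelled mut/mut. Here replicate 3 was the low array, and replicate 2 lay just under WT.

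The 6 genes grouped at decoding and the mRNA path, all with bacterial relatives, had a median of -0.06 over 5 arrays and -0.08 over 4. Mrps5, at the mRNA entry, differed by -0.17 (SE 0.09) over 5 arrays and -0.23 (SE 0.09) over 4, and Mrps12, a decoding protein, by -0.14 (SE 0.07) and -0.17 (SE 0.08). Mrps24 lay at -0.08 over 5 arrays and -0.11 over 4, Mrps7 at -0.04 over either, Mrps11 at -0.01 and 0.01, and Mrps2 at 0.03 and 0.05. On the higher side, Mrps6 had the largest difference of all 76 genes over 4 arrays, though not over 5. It read 9.76 and 9.78 in WT cells and 9.66, 10.09 and 10.06 on the arrays labelled mut/mut. The array labelled replicate 1 lay below WT, and the other two lay above. The difference was 0.17 (SE 0.16) over 5 arrays and 0.31 (SE 0.07) over 4, with an adjusted p of 0.079 in limma's fit. Mrps21, Mrps18c and Mrps14 differed by 0.11, 0.08 and 0.07 over 5 arrays and by 0.15, 0.11 and 0.11 over 4.

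**Figure D4:**
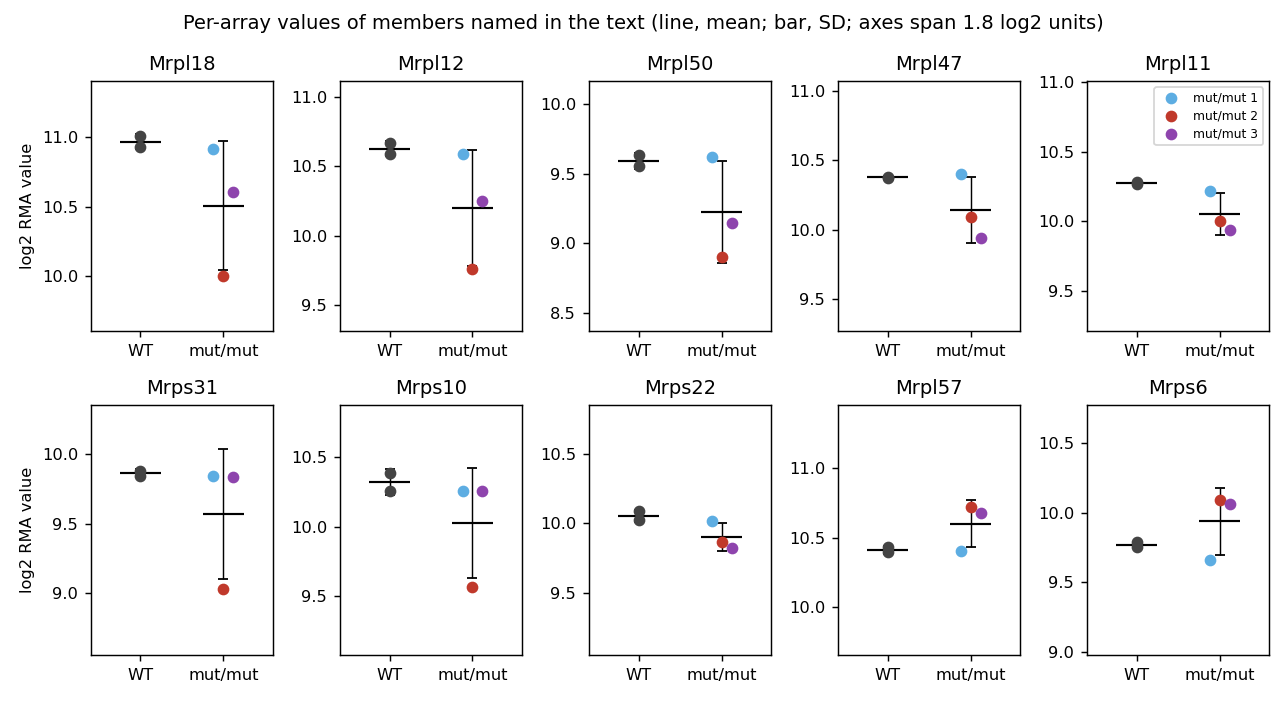
Log2 RMA values (vertical axis, each panel spanning 1.8 units) of 10 genes on the 2 WT and 3 Trip12 mut/mut arrays, with the group mean as a line and the SD as a bar. The array labelled replicate 1 sits at the WT level in most panels, replicate 2 alone is low for Mrps31 and Mrps10, and replicates 2 and 3 are both high for Mrpl57 and Mrps6.

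By ancestry, the 46 genes with bacterial relatives had a median of -0.09 over 5 arrays and -0.11 over 4, and the 27 mitochondria-specific genes had -0.10 and -0.14. In the small subunit, all 9 mitochondria-specific genes lay below 0 over 4 arrays, with medians of -0.11 over 5 and -0.14 over 4. There 11 of 17 genes with bacterial relatives lay below 0, with medians of -0.05 and -0.07. In the large subunit the order was the reverse. There 12 of 18 mitochondria-specific genes lay below 0 over 4 arrays (median -0.11), and 24 of 29 genes with bacterial relatives did (median -0.15). Of all genes 43.6% lay below 0 over 4 arrays. The symbol does not always name the subunit: Mrps18a and Mrps30 sit in the large one, and Mrps36 has been assigned to the 2-oxoglutarate dehydrogenase complex. Moving the genes to the subunits that hold them gave the same medians over 4 arrays to 2 decimals, -0.15 and -0.10. For comparison, 48 genes of cytoplasmic ribosomal proteins had a median of -0.03 over 5 arrays and -0.05 over 4, and 98 genes of the respiratory chain and ATP synthase had -0.01 and -0.03.

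The genes lie on many chromosomes, and 8 of the 76 lie on chromosome 17. Of these, 5 belong to the 15 genes low on replicate 2: Mrpl2, Mrpl18, Mrpl28, Mrps10 and Mrps18a. The 8 genes had a median of -0.59 on replicate 2 and -0.11 on replicate 3. The former was the lowest on replicate 2 among the chromosomes that hold members. As the 15 were grouped by the same array, this is a description. All 561 genes of that chromosome that were not dim had medians of 0.05 and 0.01.

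Many members had more than 1 probe set, which gives further readings of the same RNA. Of the 156 probe sets 132 were not dim, and 106 of these lay below 0 over 4 arrays. Of 56 further probe sets not dim, in 32 genes, 46 had the sign of the chosen one and 10 the opposite sign. No probe set of these genes passed limma's test, adjusted over all probe sets, over 5 or over 4 arrays. Readings on replicate 2 were also compared within the 15 genes grouped as low on that array. In that group 8 genes had 15 further probe sets that were not dim; 5 of these lay more than 0.4 below WT on replicate 2, whereas 7 lay at or above the WT mean. The WT means of these 7 ran from 5.75 to 10.25, and 3 of them had one under 6.6, near the limit of 5.52 below which a set counts as dim. On replicate 3, 13 of the 15 lay below the WT mean, with a median of -0.25.

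Bright probe sets of single genes show this. The 2 of Mrpl48, with WT means of 9.15 and 8.68, lay at -0.67 and 0.00 on replicate 2. The 3 of Mrpl28, with WT means of 10.43, 10.01 and 9.17, lay at -0.75, -0.43 and 0.04. Probe sets of Mrpl50 (WT means 9.59 and 8.40, at -0.69 and -0.39) and Mrpl1 (8.71 and 7.48, at -0.65 and -0.45) lay on the same side. For Mrpl35 the chosen set, with a WT mean of 11.08, lay at -0.80, while the other had a WT mean of only 5.85 and lay at 0.10. The low reading of replicate 2 thus differed between probe sets of 1 gene in some cases and was shared in others, and which transcripts the probe sets cover was not tested.

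**Figure D5:**
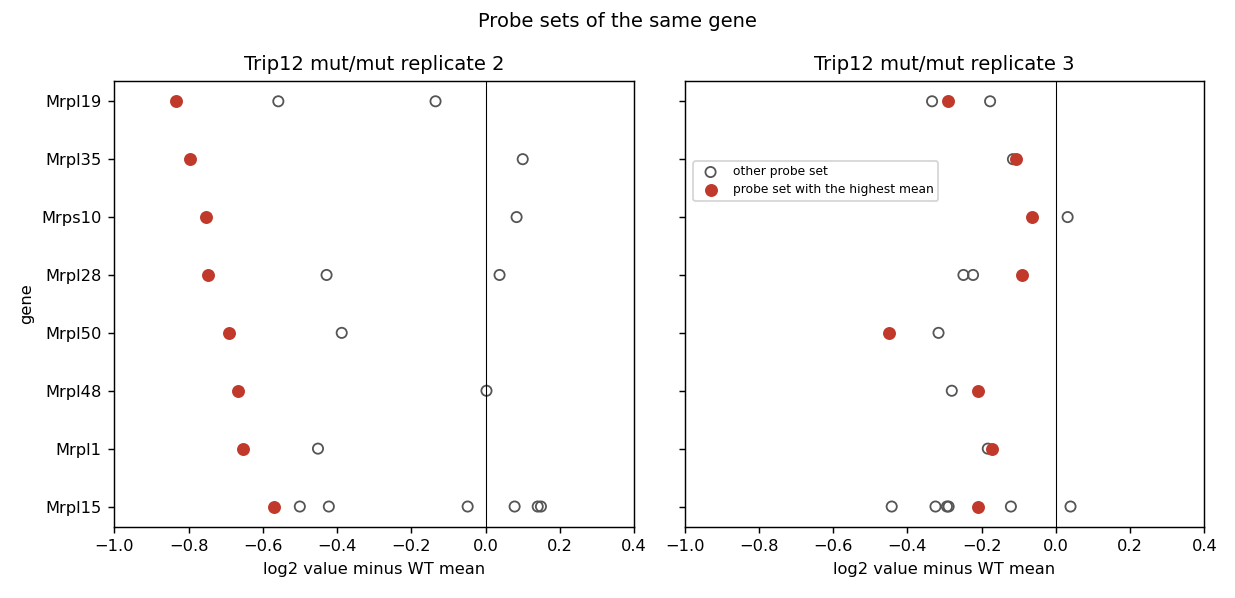
Difference from the WT mean (horizontal axis, log2 units) of every probe set not dim of the 8 genes that were low on replicate 2 and have more than 1 such probe set, on replicate 2 and on replicate 3 in separate panels. On replicate 2 the other probe sets (open circles) spread from near the chosen one (filled) to above 0, and on replicate 3 nearly all lie below 0.

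The other genes of mitochondrial translation were read from lists, and none of their genes was called in any of the 3 fits. Of 14 translation factors measured, 11 lay below 0 over 4 arrays, with a median of -0.14 over 5 arrays and -0.22 over 4. Tufm, the elongation factor that delivers tRNA, read 9.88 and 9.95 in WT cells and 9.84, 9.29 and 9.55 on the arrays labelled mut/mut, a difference of -0.36 (SE 0.17) over 5 and -0.49 (SE 0.11, limma adjusted p 0.087) over 4. Gfm1, the translocation factor, differed by -0.35 (SE 0.21) over 5 arrays and -0.48 (SE 0.18) over 4. Oxa1l, the membrane insertase, differed by -0.22 (SE 0.11) and -0.30 (SE 0.08), and Gfm2, a ribosome recycling factor, by -0.14 (SE 0.11) and -0.23 (SE 0.08). For all 4 of them replicates 2 and 3 lay below both WT arrays, as for 17.5% of all genes and 22.1% of genes not dim. These 4 were named for the smallest p over the same arrays, so their place follows largely from that choice.

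Of 28 assembly factors 22 lay below 0 over 4 arrays, with a median of -0.07 over 5 and -0.10 over 4, and Mrm2 had the same value on every array. Tfb1m, which methylates the small ribosomal RNA, read 8.71 and 8.84 in WT cells and 8.75, 7.89 and 8.24 on the arrays labelled mut/mut, a difference of -0.49 (SE 0.27) over 5 and -0.71 (SE 0.15, limma adjusted p 0.074) over 4. Malsu1, a factor of the large subunit, differed by -0.36 over 5 arrays and -0.52 over 4, Rpusd4, a pseudouridine synthase, by -0.29 and -0.42, and Ptcd2 by -0.21 and -0.30. Of the 4 other mitochondrial ribosomal proteins measured, Ptcd3 lay at -0.37 over 5 arrays and -0.56 over 4, Gadd45gip1 at -0.12 and -0.17, Chchd1 at -0.11 and -0.16, and Dap3 at 0.08 and 0.10.

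Upstream of the ribosome, 16 of 18 genes of mitochondrial DNA expression lay below 0 over 4 arrays, with a median of -0.12 over 5 and -0.19 over 4. Among them Elac2, which cuts tRNA ends, lay at -0.37 (SE 0.20) over 5 arrays and -0.54 (SE 0.12, limma adjusted p 0.087) over 4. Tefm, the transcription elongation factor, lay at -0.31 (SE 0.19) and -0.46 (SE 0.11), Mtpap, the poly(A) polymerase, at -0.30 (SE 0.16) and -0.43 (SE 0.12), and Polg2, a subunit of the DNA polymerase, at -0.29 (SE 0.15) and -0.38 (SE 0.13). Of 19 mitochondrial tRNA synthetase and related genes 15 lay below 0 over 4 arrays, with a median of -0.09 over 5 and -0.13 over 4. Yars2 differed by -0.31 over 5 arrays and -0.43 over 4, Iars2 by -0.29 and -0.41, Qrsl1 by -0.17 and -0.28, and Vars2 by -0.15 and -0.21.

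Of 11 regulators of mitochondrial biogenesis 7 lay below 0 over 4 arrays, with a median of -0.06 over 5 and -0.07 over 4. Ppargc1b, a coactivator of nuclear genes for mitochondria, read 6.79 and 6.98 in WT cells and 7.00, 5.53 and 6.11 on the arrays labelled mut/mut. The array labelled replicate 1 was the highest of the 5 and replicates 2 and 3 the lowest, replicate 2 at the median of all values. The difference was -0.67 (SE 0.46) over 5 arrays, with an adjusted p of 0.748 in limma's fit, and -1.07 (SE 0.23) over 4, with one of 0.076. Pprc1, a related coactivator, differed by -0.54 (SE 0.35) over 5 arrays and -0.76 (SE 0.30) over 4. Nrf1, a transcription factor of nuclear genes for mitochondria, differed by -0.29 (SE 0.20) and -0.43 (SE 0.16). Nfe2l2, a regulator of the oxidative stress response, lay at 0.21 (SE 0.18) and 0.325 (SE 0.15).

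As most of the genes lay to 1 side of WT by small steps, their promoters were read for motifs of factors known to act on nuclear genes for mitochondria. RefSeq windows of 300 bases (250 before to 50 after the transcription start, assembly GRCm38.p6) were matched by Entrez gene identifier for 67 of the 76 genes. Both strands were searched. The motif CCGGAAG of the ETS type, to which GABP belongs, was in the windows of 25 genes (37.3%), against 9.93% of all genes with a window and 12.9% of coding genes. The NRF1-type motif, GCGCA and GCGC with any 1 base between them, was in 12 (17.9%, against 5.19% and 7.17%), and AAGATGGC of the YY1 type in 12 (17.9%, against 3.19% and 3.57%). The E-box CACGTG was in 5 (7.46%, against 8.09% and 8.91%) and CCAAT in 26 (38.8%, against 41.1% and 42.3%). CCGGAAG and AAGATGGC can share the letters AAG; the windows of 0 members hold both motifs joined that way. A match is a description, and for 30 members another annotated gene lies within the 250 bases.

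Differences were then set beside the motifs, with no test. The median difference over 4 arrays was -0.03 for genes with the ETS-type motif and -0.16 for those without, -0.03 and -0.12 for the NRF1 type, and -0.14 and -0.10 for the YY1 type. For the E-box it was -0.03 and -0.11 and for CCAAT -0.15 and -0.05. The 250 bases before the start are printed for 4 genes described above, 2 with a motif and 2 with none of the first 3, 5′ to 3′ on the strand of the gene and with the motif in capitals. They are Mrpl12 (chr11:120484387-120484636, plus strand, NRF1 type on the opposite strand), Mrps22 (chr9:98601680-98601929, minus strand, ETS type), Mrpl11 (chr19:4962056-4962305, plus strand) and Mrps31 (chr8:22411090-22411339, plus strand).
Mrpl12: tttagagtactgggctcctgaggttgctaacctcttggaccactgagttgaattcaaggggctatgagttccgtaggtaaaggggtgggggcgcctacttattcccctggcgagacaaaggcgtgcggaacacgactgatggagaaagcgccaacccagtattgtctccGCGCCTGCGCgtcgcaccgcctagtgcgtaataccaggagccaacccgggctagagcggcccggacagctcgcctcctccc
Mrps22: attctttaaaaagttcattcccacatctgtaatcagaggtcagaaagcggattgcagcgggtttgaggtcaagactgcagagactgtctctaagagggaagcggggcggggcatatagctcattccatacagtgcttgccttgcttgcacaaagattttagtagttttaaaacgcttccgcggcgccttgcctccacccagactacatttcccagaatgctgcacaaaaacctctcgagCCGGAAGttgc
Mrpl11: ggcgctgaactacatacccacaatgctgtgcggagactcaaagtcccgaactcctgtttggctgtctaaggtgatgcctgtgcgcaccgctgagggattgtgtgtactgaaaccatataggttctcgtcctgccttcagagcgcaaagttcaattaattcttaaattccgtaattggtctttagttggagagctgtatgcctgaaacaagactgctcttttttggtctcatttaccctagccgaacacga
Mrps31: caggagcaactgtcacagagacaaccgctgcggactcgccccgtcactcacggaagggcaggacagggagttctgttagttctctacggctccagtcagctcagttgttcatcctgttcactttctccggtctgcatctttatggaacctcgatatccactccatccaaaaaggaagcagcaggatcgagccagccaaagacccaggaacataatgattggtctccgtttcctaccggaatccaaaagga
All 4 genes had a mean difference below 0 over 4 arrays, the 2 with a motif in these bases and the 2 without. They were taken from genes already described as low, so their shared sign is no comparison by motif.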

How the data were processed

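Affymetrix arrays of 2 WT and 3 Trip12 mut/mut samples of E14 cells were used. The deposited log2 values, 1 per probe set and array, were made with RMA, per the submitters' processing notes, which name no version. Scanner files were not analysed here. Of 45101 probe sets, 64 controls were left out. The platform annotation gave 34945 of the others 1 gene symbol, 932 several and 9160 none. Those with several were assigned to no gene. Each of 18193 genes was represented by its probe set with the highest mean.

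The moderated test of limma 3.58.1 (R 4.3.3) was two-sided, from a linear model of genotype alone, with Benjamini-Hochberg adjustment over all genes tested and a threshold of 0.05. SEs, p-values and intervals over 4 arrays come from the fit without dim genes, which kept genes with at least 2 of the 4 arrays above the median of all values; differences over 4 arrays are the same in both fits. The members, lists and tests were chosen with earlier results of these data known, so that no pattern is independent evidence of an earlier one. Named were, in each subunit, the 5 genes with the largest positive and negative differences over 5 and over 4 arrays, the genes of 4 role groups and, in each list, the 4 with the smallest p over 4 arrays. Roles and ancestry were assigned from general knowledge. Mrpl47 was moved to the exit tunnel and to the bacterial-type genes after its values were seen; without it the exit tunnel median over 4 arrays was -0.04 over 7 genes. Alternatives were a filter on dim genes, quantile normalisation, array medians set to 0, array weights, robust estimation with a variance trend, a replicate block, other choices of probe set, and each array left out. The code was tested on simulated data. The number of arrays limits the precision. Promoter windows and symbols came from RefSeq tables of assembly GRCm38.p6, without a genome. Python 3.11.15 with matplotlib 3.10.9 made the figures.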

Additional observations from a re-analysis of the deposited data

How the results depend on the processing

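The count of members called stayed at 0 under every alternative run, in both subunits. The count over all genes was 539 without the array labelled replicate 1 and with dim genes left out, and 0 over the 5 arrays. Over the alternatives the large-subunit median lay between -0.15 and -0.05 and the small-subunit median between -0.10 and -0.02, all below 0. With one array left out at a time, the large-subunit median ran from -0.153 to -0.0508 and the small-subunit median from -0.1014 to -0.0154, nearest to 0 in both cases without replicate 3. Without the array labelled replicate 1 and dim genes, the large-subunit median was -0.153. Deviations of same-numbered arrays correlated at -0.06 and -0.14 over genes. As the array labelled replicate 1 lay at the WT level, these values cannot show whether the replicate numbers pair the samples. With the replicate block, over the 4 arrays of replicates 1 and 2, the medians were -0.0508 and -0.0154.

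Of 546 values of the 39 named members under alternatives, 518 kept their sign and their side of the threshold and 28 turned sign, in 11 members whose differences over 5 arrays were at most 0.0776 in size. These counts hold repeats. The replicate block gives the differences found without replicate 3. Filters on dim genes and the variance trend leave a member's difference unchanged. The lowest adjusted p of limma among the named members was 0.0677. The values that turned were as follows. Quantile normalisation gave Mrpl33 -0.0087 and Mrpl46 -0.0047, centring gave Mrpl33 -0.0062 and Mrpl46 -0.0011, and array weights gave Mrpl33 -0.0107 and Mrpl46 -0.0122. The replicate block gave Mrpl22 0.0102 and Mrpl24 0.007. The mean of probe sets gave Mrpl33 -0.0147 and Mrps14 -0.0498. The probe set with the largest SD gave Mrpl17 -0.0271, Mrpl33 -0.0367, Mrpl39 0.0129, Mrps14 -0.1017 and Mrps2 -0.0229. With one array left out at a time, differences ran from -0.0205 to 0.0102 for Mrpl22, -0.0624 to 0.007 for Mrpl24, -0.0047 to 0.1085 for Mrpl3, -0.0257 to 0.0328 for Mrpl33, -0.0241 to 0.0028 for Mrpl39, -0.0258 to 0.0487 for Mrpl46, -0.0229 to 0.0094 for Mrps11, -0.0083 to 0.1082 for Mrps14 and -0.1093 to 0.0381 for Mrps7. Without the array labelled replicate 1 and dim genes, Mrps11 gave 0.0094. The cause was not tested. Members taken by updated symbols were the same 76. Every value rests on few arrays, and RMA gives no detection call. On some arrays 31 members had tied values, which narrows their spread. This was 40.8% of members, against 57.4% of all genes and 46.1% of genes not dim.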

Other observations

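A few probe sets name a mitochondrial ribosomal protein gene together with another gene, and were left out of the comparisons because the signal cannot be assigned. The brighter of the probe sets shared by Gm6238 and Mrpl30 had a WT mean of 11.50 and lay at -0.01, -0.22 and -0.25 from it on the arrays labelled replicates 1, 2 and 3. That of Nme3 and Mrps34 had a WT mean of 8.24 and lay at -0.04, -0.16 and -0.14, and that of Ccdc142 and Mrpl53 had a WT mean of 9.66 and lay at -0.01, 0.03 and -0.05.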
